A study of Mus musculus with 30 samples.

Results

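The 39 protein-coding Hox genes of the 4 mouse clusters were followed through the 5 tissues of the series. They were taken by symbol, Hoxa, Hoxb, Hoxc or Hoxd followed by a number, and all 39 were found among the 48709 genes that each count table lists. HoxA on chromosome 6 holds 11 of them, HoxB on chromosome 11 holds 10, HoxC on chromosome 15 holds 9 and HoxD on chromosome 2 holds 9. RNA-seq was done on brain, kidney, liver, muscle (quadriceps femoris) and spleen of adult C57BL/6 mice that were either wild type (WT, the controls) or haploinsufficient for Ctcf (Ctcf+/-), with 3 libraries per tissue and genotype and 30 in all. CTCF is a DNA-binding protein that sits at borders between chromatin domains, including borders inside the Hox clusters. The design text speaks of 3 mice per genotype, so libraries of different tissues may share mice; the labels do not tie a replicate number to a mouse across tissues.

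Hox genes encode homeodomain transcription factors that give cells a position along the body axis. Within a cluster, genes at the 3′ end (low paralogue numbers) are switched on early and anteriorly in the embryo, and genes at the 5′ end (high numbers) later and more posteriorly, an arrangement called collinearity. Adult cells often keep part of the code of the place where they arose: trunk mesoderm and limb derivatives carry posterior codes, while the forebrain carries none.

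Libraries held 49819907 to 131645999 assigned fragments. Levels are given as FPKM (fragments scaled to the length of exon that no other gene shares and to library size, after TMM scaling over all 30 libraries), so that genes of different length can be set side by side. In all, 16 members share exonic bases with another annotated gene, and such fragments were not counted. The most affected are Hoxd3, with 37.2% of its exonic bases unshared, Hoxb3 and Hoxd4. Ctcf was lower in every Ctcf+/- library than in every WT library of its tissue: in kidney it was 10.9 ± 0.618 FPKM (SD, n = 3) in WT and 6.68 ± 0.633 in Ctcf+/-, and in muscle 11.3 ± 0.863 and 7.71 ± 0.778. The defining markers of each organ were present, and some markers of other organs or cell types are given beside the results.

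A member was called expressed in a tissue where all 6 libraries reached 0.1 FPKM, silent where all 6 were below it, and mixed otherwise; 3 counts, taken as the floor, correspond to 0.0033 to 0.092 FPKM depending on gene and library. Of the 39 members, 30 (76.9%) were expressed in kidney, 25 (64.1%) in muscle, 5 (12.8%) in liver, 3 (7.69%) in spleen and 0 in brain, where 29.4% to 35.6% of all listed genes met the same rule in these tissues. Summed over the 4 clusters, kidney reached 260 ± 9.28 FPKM (SD, n = 6) and muscle 170 ± 20.0, against 2.82 ± 0.488 for spleen, 2.38 ± 0.225 for liver and 0.184 ± 0.142 for brain. The ranges of spleen and liver overlapped, and no other neighbours in this order did. In whole tissue, fewer expressing cells and less RNA per cell cannot be told apart. In all, 7 members were silent in every tissue: Hoxb1, Hoxb13, Hoxc12, Hoxc13, Hoxd1, Hoxd12 and Hoxd13.

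**Figure D1:**
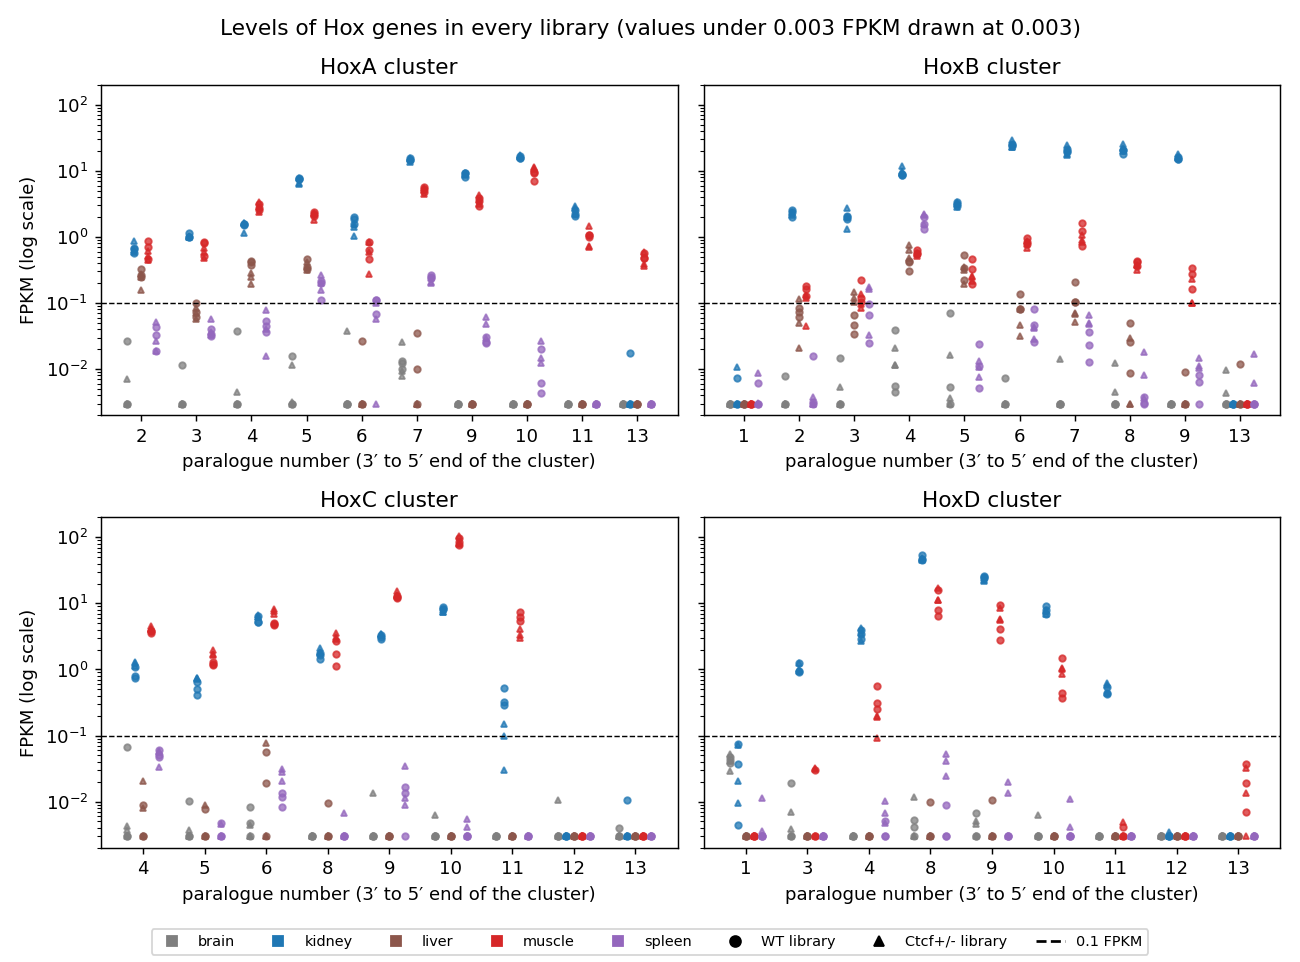
FPKM (log axis) of 38 Hox genes in each of the 30 libraries, one panel per cluster, with genes ordered from the 3′ to the 5′ end; colours are tissues, circles WT and triangles Ctcf+/-, and the dashed line is 0.1 FPKM. Kidney points lie above the line over most of each cluster and drop at the 5′ end. Muscle points lie above it over most of HoxA, as far as Hoxa13, and over HoxC up to Hoxc11. In muscle 5 of 10 HoxB members and 3 of 9 HoxD members are above it in every library. All brain points lie below the line.

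The sequences shown first are promoter windows (250 bases before to 50 after the annotated start, RefSeq, GRCm38.p6) of the genes on either side of the expressed-to-silent borders described next, with CpG dinucleotides in capitals. Hoxa11 and Hoxd11 are the last expressed genes of their clusters in kidney, Hoxa13 and Hoxd12 are their silent neighbours, and Hoxd8 is the most abundant Hox transcript there.
Hoxa11, chr6:52245761-52246060, minus strand: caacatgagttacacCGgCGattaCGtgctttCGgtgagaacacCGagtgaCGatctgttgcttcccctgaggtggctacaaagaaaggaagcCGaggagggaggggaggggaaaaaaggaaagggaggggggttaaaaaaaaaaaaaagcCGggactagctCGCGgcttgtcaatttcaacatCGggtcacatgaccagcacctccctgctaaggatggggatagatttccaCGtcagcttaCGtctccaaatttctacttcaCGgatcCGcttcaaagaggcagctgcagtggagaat
Hoxa13, chr6:52260831-52261130, minus strand: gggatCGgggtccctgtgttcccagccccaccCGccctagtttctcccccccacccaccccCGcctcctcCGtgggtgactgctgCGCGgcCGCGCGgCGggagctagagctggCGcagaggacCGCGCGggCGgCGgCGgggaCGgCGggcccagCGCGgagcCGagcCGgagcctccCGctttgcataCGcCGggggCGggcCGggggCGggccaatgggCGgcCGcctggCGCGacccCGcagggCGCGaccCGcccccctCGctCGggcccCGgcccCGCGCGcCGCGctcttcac
Hoxd11, chr2:74682073-74682372, plus strand: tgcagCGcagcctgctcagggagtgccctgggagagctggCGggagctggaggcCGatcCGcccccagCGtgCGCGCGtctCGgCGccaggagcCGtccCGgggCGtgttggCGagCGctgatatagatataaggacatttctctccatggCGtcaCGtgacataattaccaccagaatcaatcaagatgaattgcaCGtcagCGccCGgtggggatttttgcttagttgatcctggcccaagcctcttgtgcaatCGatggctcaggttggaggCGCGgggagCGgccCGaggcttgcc
Hoxd12, chr2:74674763-74675062, plus strand: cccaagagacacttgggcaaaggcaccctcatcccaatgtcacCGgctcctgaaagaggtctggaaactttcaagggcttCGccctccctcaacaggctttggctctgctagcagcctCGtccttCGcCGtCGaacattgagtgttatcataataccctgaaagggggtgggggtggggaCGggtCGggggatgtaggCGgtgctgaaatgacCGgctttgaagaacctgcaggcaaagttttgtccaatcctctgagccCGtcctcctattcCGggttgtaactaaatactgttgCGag
Hoxd8, chr2:74704365-74704664, plus strand: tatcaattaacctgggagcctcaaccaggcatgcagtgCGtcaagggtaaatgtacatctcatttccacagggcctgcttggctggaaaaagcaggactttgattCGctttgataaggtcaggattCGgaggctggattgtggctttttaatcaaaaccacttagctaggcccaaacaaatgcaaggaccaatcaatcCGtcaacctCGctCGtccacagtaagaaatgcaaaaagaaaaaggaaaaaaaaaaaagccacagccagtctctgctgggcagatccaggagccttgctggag
The Hoxa13 window holds 45 CpG and the Hoxa11 window 15, the Hoxd11 window shown (its other annotated start has 4) holds 25, the Hoxd12 window 13 and the Hoxd8 window 6, against a median of 7 over 32851 windows of all genes. Among these 5 windows Hoxa13, silent in kidney but expressed in muscle, had the most CpG and Hoxd8 the fewest. Over all windows of members the median was 14.5 CpG, with a range of 4 to 45. A relation between CpG and level was not tested. Windows were available for 22 of the 39 members (24 windows). On either strand, the TATA box letters TATAAA were in windows of Hoxa10, Hoxb8, Hoxd4 and Hoxd13 and in 13.6% of the windows of all genes.

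In kidney, the HoxA code reached as far as Hoxa11 and stopped before Hoxa13, the gene of the distal limb and genital region. Hoxa11, which acts in kidney and limb formation, was at 2.10, 2.20 and 2.52 FPKM in WT and 2.22, 2.89 and 2.70 in Ctcf+/- libraries. Hoxa13 was at 0.0173 FPKM in WT replicate 1 (5 counts) and at 0 counts in the other 5. The fall from Hoxa11 to Hoxa13 was 7.68 ± 0.708 (SD, n = 6) on the log2(FPKM + 0.01) scale and was seen in 6 of 6 libraries, over a gap of 11883 bases between the gene models. With Hoxa13 at or near 0, the size of this fall depends on the 0.01 added. Levels did not climb steadily along the cluster. Hoxa10 (16.4 ± 0.716 FPKM, SD, n = 6) and Hoxa7 (14.9 ± 0.813) were highest, and Hoxa6 (1.59 ± 0.345) lay below both of its neighbours in all 6 libraries.

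HoxB in kidney had a silent gene at each end. Hoxb1, known for its role in the hindbrain, reached at most 0.0106 FPKM, while its neighbour Hoxb2 ranged from 2.03 to 2.58. Hoxb6 (24.8 ± 2.44 FPKM), Hoxb8 (21.3 ± 2.54), Hoxb7 (20.0 ± 2.63) and Hoxb9 (16.3 ± 1.11) lay close together, and the ranges of neighbours overlapped. Within libraries, Hoxb7 was below Hoxb6 and Hoxb9 below Hoxb8 in 6 of 6, while Hoxb7 and Hoxb8 had no fixed order. Hoxb13, a gene of the tail bud and prostate that lies 74009 bases beyond Hoxb9, had 0 counts in all 6 kidney libraries. HoxD in kidney ran from Hoxd3 to Hoxd11. Hoxd8 was at 53.4, 45.2 and 46.4 FPKM in WT and 47.6, 44.8 and 49.0 in Ctcf+/-, above every other Hox gene of the tissue. From there the levels fell gene by gene, to 24.0 ± 1.63 for Hoxd9, 7.75 ± 0.829 for Hoxd10 and between 0.42 and 0.63 for Hoxd11, which acts with Hoxa11 in kidney formation. Hoxd12 was detected by 1 count in 1 library, so the step from Hoxd11 fell by 5.61 ± 0.359 on the log2(FPKM + 0.01) scale across 1851 bases. The size of that step also depends on the 0.01 added. HoxC in kidney was expressed from Hoxc4 to Hoxc10, and Hoxc12 had 0 counts. Hoxc11 between them was mixed, at 0.292 to 0.522 FPKM in WT and 0.0303 to 0.148 in Ctcf+/-, as given with the genotypes. In all, 5 of the 35 neighbouring pairs in kidney joined an expressed to a silent gene. The HoxC end is not among them, because Hoxc11 fell below 0.1 FPKM in Ctcf+/- libraries only.

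Muscle had another code, made up mostly of HoxC transcripts. Hoxc10, a gene of the lumbar region and hindlimb, was at 77.5, 85.98 and 96.9 FPKM in WT and 82.4, 79.8 and 104 in Ctcf+/-, the highest level of any Hox gene in any tissue. HoxC made up 71.0 ± 2.39% (SD, n = 6) of the summed Hox level in muscle and 8.09 ± 0.455% in kidney, while HoxB made up 2.13 ± 0.406% in muscle and 38.2 ± 1.85% in kidney. The HoxC genes rose from Hoxc8 (2.52 ± 0.914 FPKM) through Hoxc9 (13.2 ± 1.13) to Hoxc10 (87.9 ± 10.6), fell to Hoxc11 (4.91 ± 1.71) and ended at Hoxc12 and Hoxc13, which had 0 counts in all 6 libraries. HoxA reached 1 gene further than in kidney: Hoxa13 was at 0.487, 0.481 and 0.566 FPKM in WT and 0.357, 0.386 and 0.585 in Ctcf+/- (51 to 85 counts). HoxD stopped 1 gene earlier: Hoxd10 ranged from 0.366 to 1.48 FPKM and Hoxd11 from 0 to 0.00498. Hoxc11-Hoxc12 and Hoxd10-Hoxd11 were the 2 expressed-to-silent pairs in muscle. Hoxb2, Hoxb3, Hoxb9 and Hoxd4 were among the mixed members in muscle, and the count of such pairs depends on the threshold: it was 4 at 0.03 FPKM, 5 at 0.5 FPKM and 4 without Ctcf+/- replicate 2.

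Kidney markers were detected in muscle libraries: all 5 were present, and their summed level was 14.0 to 118 FPKM in WT and 0.113 to 7.36 in Ctcf+/- muscle, against 15149 to 22733 in kidney. In WT replicate 2, the highest, Umod stood at 0.47% and Aqp2 at 0.713% of its kidney mean. Over the 6 muscle libraries Hoxb6 stood at 2.73% to 3.85%, Hoxb9 at 0.613% to 2.05% of the kidney mean, and Hoxc10 at 962% or more. In Ctcf+/- replicates 1 and 2, where the kidney markers summed to at most 0.139 FPKM, Hoxb6 was at 0.679 and 0.781 FPKM. The part of kidney RNA in the muscle HoxB values was not tested.

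The tissue codes were tested among the 15 WT libraries with edgeR's quasi-likelihood test over 22933 genes, 32 of them members. The count filter let a member enter through 1 tissue alone, as Hoxd11 did through kidney and Hoxa13 through muscle. The 7 members silent in every tissue did not enter. The counts of members higher or lower are thus partly set by the filter and only describe the members that passed it. In kidney against the mean of the other 4 tissues, 31 of the 32 were higher and 0 lower, where 32.9% of all genes tested were higher. Muscle had 28 higher and 0 lower, against 32.2% of all genes higher (23.8% and 34.7% of all genes were lower in kidney and muscle). Brain had 18 lower and 0 higher, against 33.7% and 39.5% of all genes. Spleen had 12 lower and 1 higher, against 37.7% and 38%. Liver had 5 lower and 3 higher, against 30.3% and 28.5%. The counts of lower members depend on the test and the libraries: DESeq2 called 30 lower in brain, 26 in spleen and 19 in liver, and edgeR called 5 in spleen and 3 in liver without WT replicate 2. Many members not called were at or near 0 counts in the tissue, where edgeR's standard error is too wide for a call, so a member not called is not shown to be equal. These contrasts share their libraries. Between the 2 Hox-rich tissues, 21 members were higher in kidney (35.9% of all genes) and 7 in muscle (28.5%): Hoxa4, Hoxa13, Hoxc4, Hoxc5, Hoxc9, Hoxc10 and Hoxc11. Hoxc10 differed by -3.55 ± 0.147 (log2 kidney over muscle ± SE, adjusted p = 7.61e-08) and Hoxc11 by -4.27 ± 0.324 (adjusted p = 4.43e-06). On the kidney side, Hoxd8 differed by 2.06 ± 0.295 (adjusted p = 2.29e-05) and Hoxb6 by 4.63 ± 0.273 (adjusted p = 1.89e-09). Scaling matters here: with total counts in place of TMM the median of all genes moved by 1.16 towards kidney, and 23 members were higher in kidney and 4 in muscle.

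**Figure D2:**
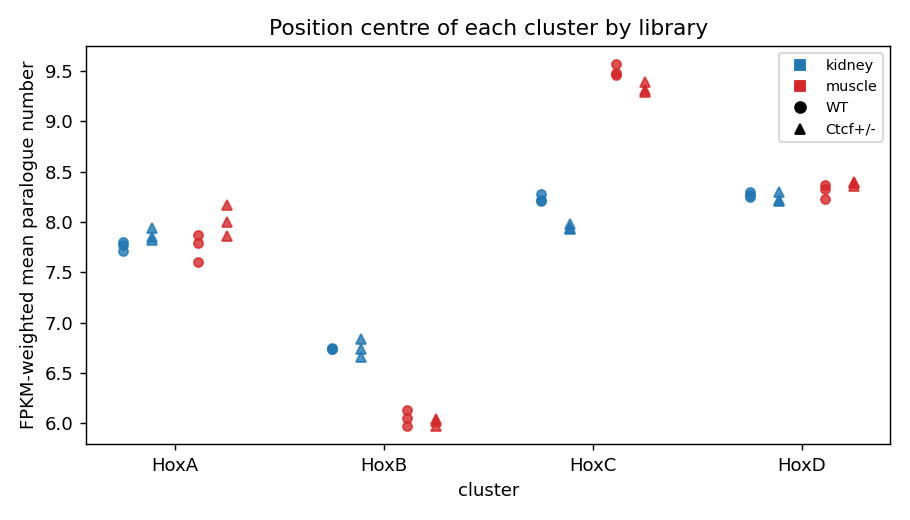
Mean paralogue number of each cluster, weighted by FPKM, in each kidney (blue) and muscle (red) library; circles are WT and triangles Ctcf+/-. The HoxC centre lies near 9.42 in muscle and 8.09 in kidney, the HoxB centre near 6.03 and 6.74.

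A single number for each cluster, the mean paralogue number weighted by FPKM, placed HoxC at 9.42 ± 0.106 (SD, n = 6) in muscle and 8.09 ± 0.158 in kidney. HoxB lay at 6.03 ± 0.0588 in muscle and 6.74 ± 0.0558 in kidney, while HoxA (7.88 ± 0.192 and 7.82 ± 0.0779) overlapped between the tissues. HoxD was at 8.34 ± 0.0626 and 8.25 ± 0.04003. The HoxC centre thus lay nearer the 5′ end in muscle than in kidney and the HoxB centre nearer the 3′ end, on a measure that the most abundant genes dominate.

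Liver, spleen and brain kept little of a code. In liver, 5 anterior members passed the rule: Hoxa2, Hoxa4, Hoxa5, Hoxb4 and Hoxb5, at 0.157 to 0.746 FPKM, and the 18 HoxC and HoxD genes were all silent. In spleen Hoxb4, which acts in blood stem cells, was at 1.30, 1.55 and 1.98 FPKM in WT and 2.15, 1.56 and 2.21 in Ctcf+/-. It was higher there than in the other tissues together by 1.85 ± 0.224 on the log2 scale (WT, adjusted p = 2.53e-06). That contrast averages log levels over 4 tissues, and the FPKM of Hoxb4 in kidney (8.61 to 11.8) was above that in spleen. The 3 erythroid markers were all detected in spleen, summing to 303 to 1548 FPKM in WT and 410 to 1180 in Ctcf+/-; their part in the Hoxb4 levels was not tested. Hoxa5 (0.113 to 0.267 FPKM) and Hoxa7 (0.203 to 0.264) were the other 2 expressed members of spleen.

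In brain no library reached 0.1 FPKM for any member. Hoxd1 had the highest mean, 0.0421 FPKM, with 5 to 9 counts in each of the 6 libraries, and its mean was lower in every other tissue. Its kidney mean was 0.036 FPKM, and the kidney range (0.0045 to 0.0742) overlapped that of brain (0.0291 to 0.0523). Hoxa7 (2 to 6 counts) and Hoxb4 (1 to 10) were also detected in all 6 brain libraries. The highest single values, Hoxb5 at 0.0704 and Hoxc4 at 0.0659 FPKM, were both in WT replicate 2, and the other 5 libraries were at 0.0161 or less for both. The 7 hindbrain and brainstem markers were all detected and summed to 2.58 FPKM in that library and to 1.26 to 1.93 in the others. The serotonin transporter Slc6a4 was at 0.310 FPKM there and at most 0.0345 elsewhere, and the glycine transporter Slc6a5 at 0.144 and at most 0.0485. Their part in the Hox values was not tested.

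Between genotypes, edgeR called 0 of the tested members in any tissue: 0 of 31 in kidney (0.0211% of all genes tested were called), 0 of 30 in muscle (0.0249%), 0 of 9 in spleen (0.242%) and 0 of 7 in liver (0.0193%). In brain no member had enough counts to be tested. At an unadjusted p under 0.05 there were 4 in kidney (6.44% of all genes), 6 in muscle (6.45%), 1 in liver (4.56%) and 0 in spleen (3.52%). DESeq2 called 1 member in kidney (0.925% of all genes), 2 in muscle (0.99%), 0 in liver (0.463%) and 0 in spleen (1.01%). The members' median log2 difference, Ctcf+/- over WT, was 0.02 in kidney, against 0.00022 for all genes, and -0.11 in muscle, against -0.0075.

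**Figure D3:**
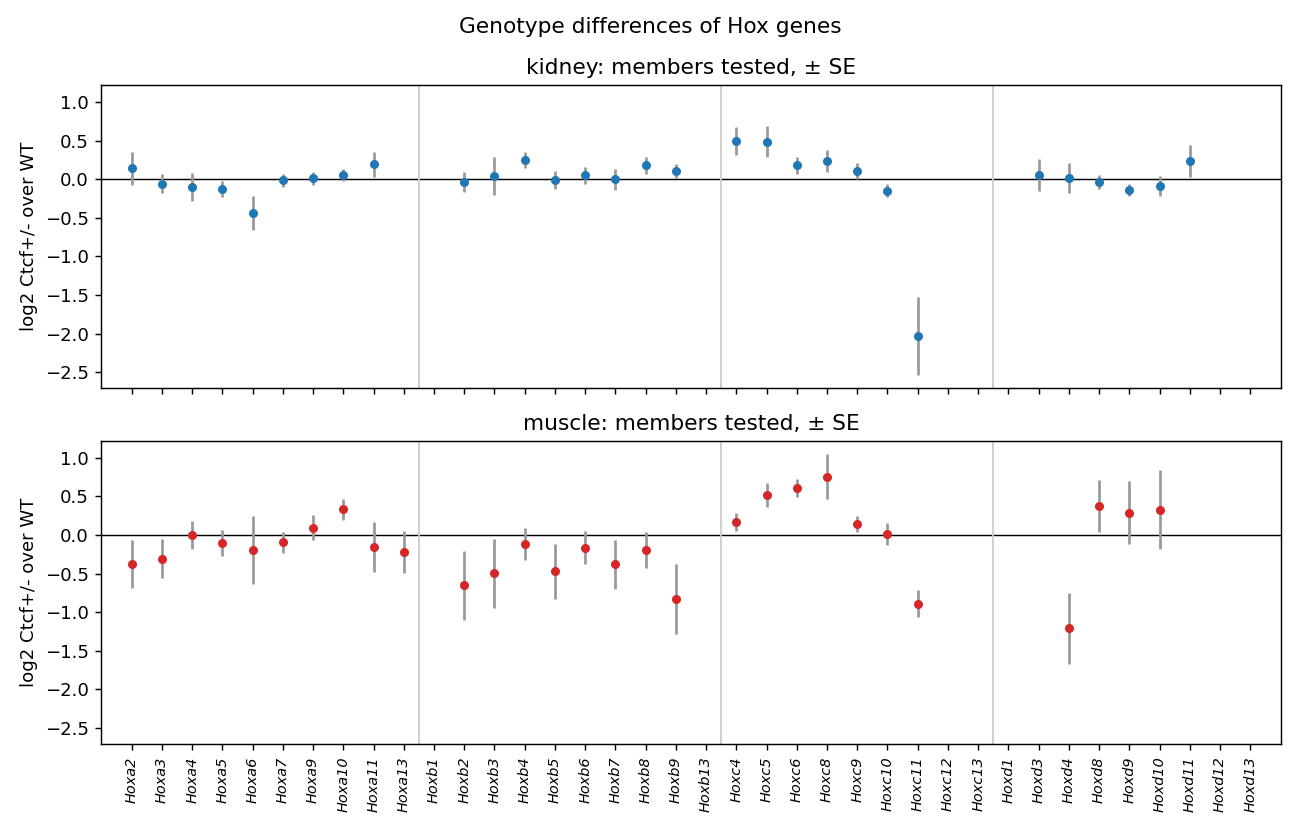
Log2 difference between Ctcf+/- and WT with its standard error for members tested by edgeR, in kidney (top) and muscle (bottom), with grey lines between clusters. Hoxc11 is the lowest point in kidney, at -2.03, and lies at -0.89 in muscle, where Hoxc5, Hoxc6 and Hoxc8 lie between 0.52 and 0.75.

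Hoxc11, the last HoxC gene expressed in muscle, was lower in Ctcf+/- without overlap in both kidney and muscle. In muscle it was at 6.28, 5.49 and 7.29 FPKM in WT and 3.37, 2.98 and 4.06 in Ctcf+/-. The log2 difference was -0.89 ± 0.173 (SE), with an adjusted p of 0.251 by edgeR and of 0.00115 by DESeq2. In kidney Hoxc11 was at 0.522, 0.292 and 0.316 FPKM in WT (123, 64 and 77 counts) and 0.0303, 0.148 and 0.0978 in Ctcf+/- (7, 31 and 24 counts). The log2 difference was -2.03 ± 0.504 (adjusted p = 0.419 by edgeR and 0.0126 by DESeq2). The exact 2-sided permutation p was 0.1 in each tissue, the smallest that 3 against 3 allows. Fitted as 1 effect shared by the 5 tissues, Hoxc11 differed by -1.35 ± 0.313 (adjusted p = 0.169 by edgeR over 24262 genes, 0.194% of which were called, and 0.0335 by DESeq2, which called 0.652%). Hoxc11 had 0 counts in every brain, liver and spleen library, so this value rests on kidney and muscle and adds no evidence to theirs.

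In muscle, 5 HoxC genes on the 3′ side of Hoxc10 were higher in every Ctcf+/- library than in every WT library, and none of them passed edgeR's test. Hoxc6 was at 4.93, 5.12 and 4.77 FPKM in WT and 8.25, 6.90 and 7.76 in Ctcf+/-, with no overlap and a log2 difference of 0.61 ± 0.112 (adjusted p = 0.233 by edgeR and 0.00163 by DESeq2). Hoxc5 was at 1.23, 1.31 and 1.15 FPKM in WT and 1.68, 1.70 and 1.98 in Ctcf+/- (log2 difference 0.52 ± 0.155, adjusted p = 0.519 by edgeR). Hoxc8 was at 2.72, 1.72 and 1.13 FPKM in WT and 2.87, 3.11 and 3.58 in Ctcf+/- (log2 difference 0.75 ± 0.290, adjusted p = 0.68). The adjusted p of Hoxc4 was 0.896 and that of Hoxc9 0.907, and Hoxc10 overlapped. In all, 6 of the 30 members tested in muscle were higher without overlap, the 5 HoxC genes and Hoxa10, where 6.87% of all genes tested were; 2 were lower, Hoxc11 and Hoxd4, where 5.14% of all genes were.

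**Figure D4:**
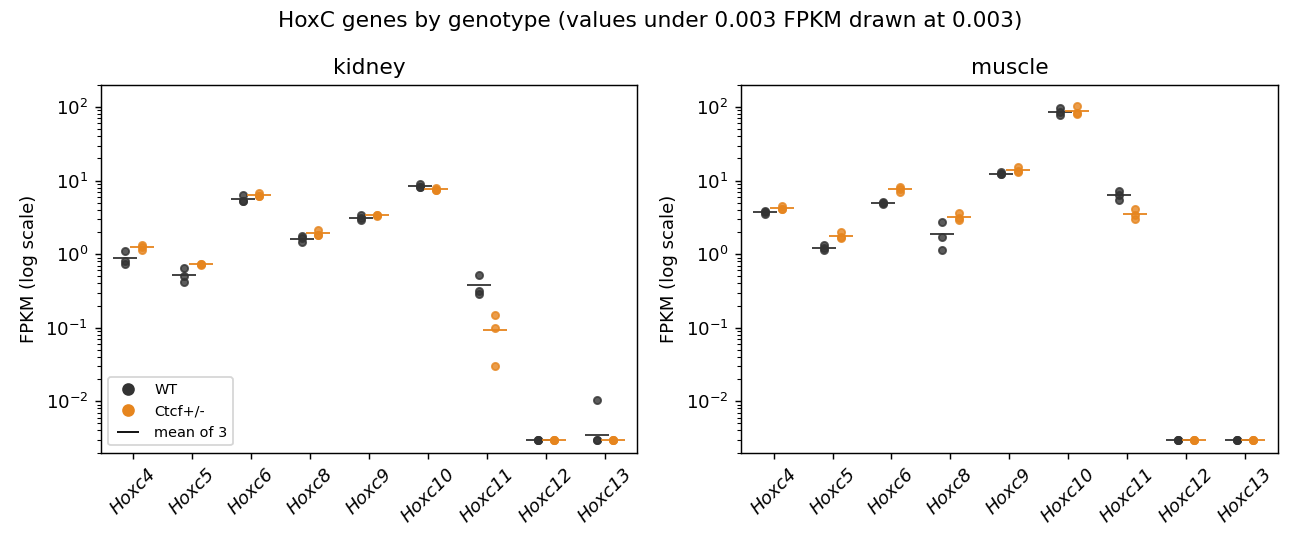
FPKM (log axis) of the 9 HoxC genes in each WT (dark) and Ctcf+/- (orange) library of kidney (left) and muscle (right); dashes are means of 3. Hoxc11 is the gene where Ctcf+/- points lie below WT points in both tissues.

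In kidney, Hoxc4 was at 1.09, 0.746 and 0.808 FPKM in WT and 1.26, 1.15 and 1.32 in Ctcf+/-, and Hoxc5 at 0.642, 0.510 and 0.412 against 0.718, 0.731 and 0.743. Their log2 differences were 0.50 ± 0.182 and 0.49 ± 0.199, with adjusted p of 0.659 and 0.728 by edgeR. Hoxc8 and Hoxb4 also lay higher without overlap, Hoxc6 and Hoxc9 overlapped, and Hoxc10 and Hoxd9 lower, with log2 differences of -0.15 and -0.14. That made 4 of 31 members higher (6.05% of all genes) and 3 lower (5.13%). The HoxC centre was 8.23 ± 0.0404 (SD, n = 3) in WT and 7.95 ± 0.0255 in Ctcf+/- kidney, and 9.50 ± 0.0597 and 9.33 ± 0.0512 in muscle. HoxC was not alone in this. The HoxA centre of kidney was 7.76 ± 0.0420 in WT and 7.87 ± 0.0619 in Ctcf+/-, without overlap and towards the 5′ end. The HoxB centre of liver was 4.80 ± 0.192 and 4.31 ± 0.177, also without overlap, and that of brain differed near the floor. Centres were described and not tested. The test of a genotype effect that differs between tissues called 0 of 33 by edgeR (0.758% of all genes) and 2, Hoxc4 and Hoxd8, by DESeq2 (3.03% of all genes). Hoxd8 had 0, 3 and 1 counts in WT spleen and 10, 15 and 16 in Ctcf+/- spleen, where kidney markers were also higher, and Hoxc4 had 17 counts in WT replicate 2 of brain and at most 1 in the other 5. The part of these libraries in the DESeq2 calls was not tested.

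Marker sums of other cell types in muscle and kidney are set beside the HoxC values here. None of the adipose, fibroblast, liver and adrenal markers was called for genotype by edgeR in either tissue. The 4 adipose markers (Adipoq, Plin1, Cidec and Lep) were all detected in muscle and summed to 4.42 to 15.6 FPKM in WT and 26.6 to 74.3 in Ctcf+/-, without overlap, and the 4 fibroblast markers to 123 to 186 and 143 to 292. In kidney the adipose sum was 1.80 to 58.0 in WT and 13.4 to 31.8 in Ctcf+/-. The fibroblast sum was 33.6 to 38.8 in WT kidney and 44.2 to 52.4 in Ctcf+/-, without overlap, with 3 of the 4 markers at an unadjusted p under 0.05 and a lowest adjusted p of 0.107 by edgeR. The 4 liver markers summed to 37.1 to 48.0 in WT kidney and 76.7 to 196 in Ctcf+/-, also without overlap. The 3 adrenal markers summed to 0.831 to 0.887 FPKM in WT kidney, 0.938 in Ctcf+/- replicate 1, and 5.10 and 7.94 in Ctcf+/- replicates 2 and 3. Their part in the HoxC values was not tested. Without those 2 kidney libraries the log2 difference of Hoxc11 was -3.63. The Ctcf+/- library kept, replicate 1, had the lowest Hoxc11 of its group (7 counts, 0.0303 FPKM). A larger difference thus followed from which library was kept, and the spread within Ctcf+/- could not be measured.

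**Figure D5:**
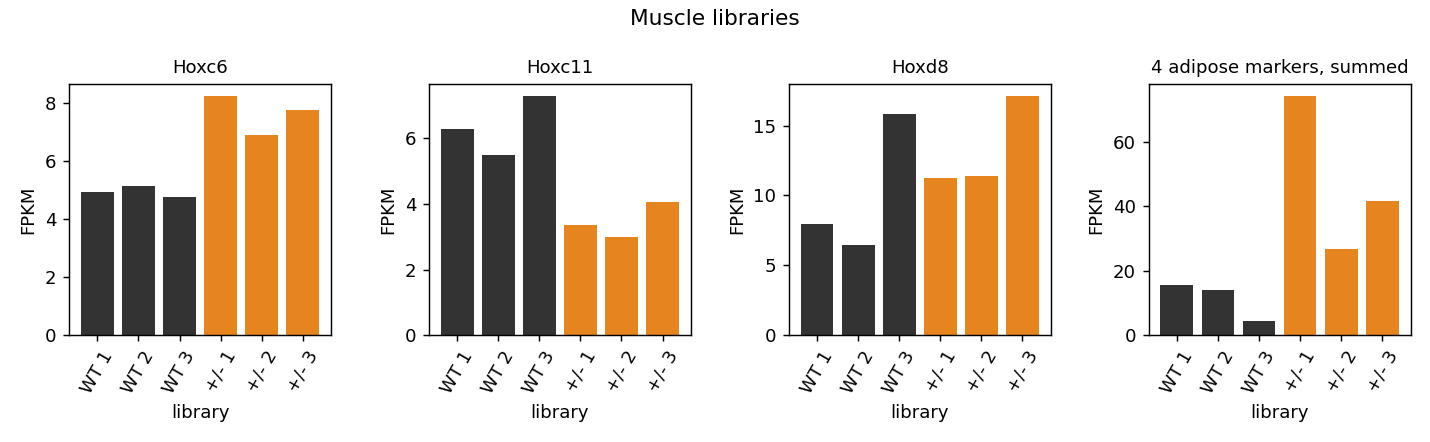
FPKM of Hoxc6, Hoxc11 and Hoxd8 and the summed FPKM of 4 adipose markers in each muscle library, WT dark and Ctcf+/- orange. Hoxc6 and the adipose markers are higher in all 3 Ctcf+/- libraries, Hoxc11 lower, and Hoxd8 is highest in replicate 3 of both genotypes.

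The HoxD genes of muscle varied between libraries of 1 genotype. Hoxd8 was at 7.96, 6.45 and 15.8 FPKM in WT and 11.2, 11.4 and 17.1 in Ctcf+/-, Hoxd9 at 4.16, 2.82 and 9.31 against 5.70, 5.90 and 8.59, and Hoxd10 at 0.436, 0.366 and 1.48 against 1.02, 0.853 and 1.03. All 3 were highest in WT replicate 3 among the WT libraries, and the genotypes overlapped. Hoxd4 was at 0.249, 0.312 and 0.553 FPKM in WT and 0.194, 0.0932 and 0.194 in Ctcf+/- (log2 difference -1.21 ± 0.461, adjusted p = 0.671 by edgeR); it shares exons with Hoxd3 and was counted on 47.7% of its exonic bases. In liver, Hoxa4 was at 0.437, 0.379 and 0.415 FPKM in WT and 0.245, 0.280 and 0.197 in Ctcf+/-, and Hoxb4 at 0.307, 0.427 and 0.424 against 0.746, 0.641 and 0.482. Their adjusted p was 0.9999 by edgeR, and 1 of the 7 members tested there was lower without overlap (2.91% of all genes) and 1 higher (6.29%). The 3 endothelial markers summed to 19.4 to 23.6 FPKM in WT liver and 13.6 to 17.6 in Ctcf+/-, and their part was not tested. In spleen 1 of 9, Hoxa7, was lower without overlap (2.36% of all genes) and 0 were higher (4.18%). Among the members with too few counts to be tested, Hoxb7, Hoxb9, Hoxc6 and Hoxd8 were higher in every Ctcf+/- spleen library, at 16 counts or fewer. The share of all untested genes that did so was not computed. Such cases also occurred elsewhere: untested Hoxb3 was higher and Hoxb7 lower without overlap in liver. In brain Hoxb13 was higher, at 2 counts or fewer. The 5 kidney markers summed to 0.037 to 0.0935 FPKM in WT spleen and 7.46 to 16.0 in Ctcf+/-, with 2 called higher by edgeR. In Ctcf+/- replicate 2 of spleen, Kap, a kidney marker, stood at 0.0854% of its kidney mean, Hoxd8 at 0.109%, Hoxb9 at 0.0904% and Hoxc6 at 0.523%. In that library Hoxb7 was at 0.0491 FPKM (8 counts, kidney mean 20.0) and Hoxb8 at 0.0036 FPKM (1 count, kidney mean 21.3). The 4 liver markers summed to 10.4 to 13.4 FPKM in WT spleen and 0.017 to 0.0747 in Ctcf+/-, and all 4 were called lower. The part of these in the spleen values was not tested.

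Genes known to act on the clusters were followed as 5 lists of 47 genes: TALE cofactors, which bind DNA with Hox proteins, caudal factors, Polycomb repressors, trithorax activators, and retinoid receptors and enzymes. None of them was called for genotype by edgeR in any tissue, with 44 tested in kidney and 41 in muscle; at an unadjusted p under 0.05 there were 3 in each, near the share of all genes (6.44% in kidney and 6.45% in muscle). The TALE genes were led by Pbx2 in kidney (10.97 ± 0.780 FPKM, SD, n = 6) and by Pknox2 in muscle (10.2 ± 2.54), and the Polycomb genes by Cbx6 in kidney (16.3 ± 1.21) and Bmi1 in muscle (14.4 ± 1.32). Hotair, a long non-coding RNA made from the HoxC cluster beside Hoxc11, was at 0.149, 0.170 and 0.169 FPKM in WT muscle and 0.0437, 0.0509 and 0.1296 in Ctcf+/- (adjusted p = 0.776 by edgeR). It was lower without overlap, as 5.14% of all genes tested in muscle were, at levels near 0.1 FPKM. Hotair was 1 of 16 genes listed at cluster edges or as non-coding cluster transcripts. In muscle 10 of these were tested and none was called.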

How the data were processed

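The authors deposited raw fragment counts per gene, 1 table per tissue, counted with featureCounts 1.5.0-p3 on exons of Ensembl release 86 (GRCm38), paired-end and without strand, on alignments from IRFinder, per the file headers; the submitters' processing notes also name FastQC, STAR and DESeq2. Total RNA was extracted with TRIzol and treated with a DNA removal kit, per the labels' protocols. Fragments that overlap several genes were left out, so members that share exons are under-counted; the deposited exon lengths were reduced to unshared bases for FPKM, which was computed here. Libraries held 49819907 to 131645999 counts. Symbols stood beside the IDs for 48349 of 48709 genes.

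Genotypes were compared within each tissue, and tissues among WT libraries, with edgeR 4.0.16 (quasi-likelihood test, TMM, filterByExpr, Benjamini-Hochberg adjustment over all genes tested, threshold 0.05) in R 4.3.3. Alternatives were DESeq2 1.42.0, limma 3.58.1 (voom), other scalings and filters, a replicate block and leaving out each library. Fits were tested on simulated data, where the test of a genotype effect that differs between tissues made more false calls than its threshold allows. The same replicate numbers occur in both genotypes: deviations of same-numbered libraries correlated in every pair of brain (0.207 to 0.537) and kidney (0.190 to 0.212), so the numbers were taken to pair samples there; the block changed no call there. P-values measure the spread between these samples only.

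Members, lists and markers were chosen with earlier results of these data known. Any member may be named. Full values are given for those called, on a border or highest of their cluster. They are also given for those without overlap between genotypes and among the 5 smallest p of a tissue. Other lists give their highest genes, and Hotair is named besides. Kidney without Ctcf+/- replicates 2 and 3 was added after seeing the data. The values of 1 member are not reported here; counts and sums over the members include it.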

Additional observations from a re-analysis of the deposited data

How the results depend on the processing

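Genotype calls depended on the test. Against 0 members with edgeR, DESeq2 called 1 in kidney, 2 in muscle, 1 for the effect shared by tissues and 2 for the difference between tissues; the other scalings, filters and limma-voom called 0. A replicate block called 1 member in muscle, Hoxc11 (log2 difference -0.89, adjusted p = 0.0212), where same-numbered libraries correlated by 0.0829 to 0.271 and share only a number as far as the labels say; it changed no other genotype count. Leaving out any library left 0 called in each tissue.

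For tissues, the count of members higher in brain went from 0 to 1 with a filter of 1 count or with all 30 libraries, and from 0 to 1 over the left-out replicates; DESeq2 called 30 lower. In liver, total counts gave 0 higher and 9 lower, DESeq2 19 lower, all 30 libraries 5 higher and 11 lower, and leaving out a replicate 0 to 3 higher and 3 to 5 lower. In spleen total counts gave 2 higher, DESeq2 26 lower, and leaving out a replicate 5 to 11 lower, lowest without WT replicate 2. Total counts gave 1 lower in muscle, and 4 rather than 7 members higher in muscle than in kidney. Hoxa10 lost its call of kidney over muscle without WT replicate 1 (adjusted p = 0.0789) and Hoxa13 with DESeq2 (adjusted p = 0.193). The cause was not tested.

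A cut of 0.03 or 0.5 FPKM gave 10 or 0 expressed members in liver and 5 or 1 in spleen. Borders in liver numbered 1, but 0 at 0.5 FPKM, 4 with all exonic bases and 1 to 3 over left-out libraries; in muscle they numbered 4 at 0.03 FPKM, 5 at 0.5 FPKM and 2 to 4 over left-out libraries. With weights of log2(FPKM + 1) the centres in kidney were 7.14 (HoxA), 6.20 (HoxB), 7.78 (HoxC) and 7.91 (HoxD), and in muscle 7.32, 5.97, 8.26 and 8.41; with all exonic bases HoxB was 6.82 in kidney and 6.13 in muscle, and HoxD 8.38 in kidney. HoxC stayed higher in muscle than in kidney and HoxB lower under both. Members near the floor of 3 counts, such as many in liver and spleen, were too low for the genotype test.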

Other observations

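Cyp26b1, an enzyme that breaks down retinoic acid, was singled out after its values were seen. In muscle it was at 1.16, 0.202 and 9.10 FPKM in WT and 1.89, 2.49 and 9.21 in Ctcf+/- libraries, highest in replicate 3 of both genotypes, as Hoxd8 was. In kidney it was at 0.835, 0.218 and 3.66 FPKM in WT and 0.813, 2.70 and 4.91 in Ctcf+/-, and in liver at 0.879, 0.120 and 3.90 against 1.59, 0.942 and 4.78, again highest in replicate 3 of both. Hoxd8 in kidney was highest in WT replicate 1, at 53.4 FPKM, and did not share that order.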
